A study of Drosophila melanogaster with 12 samples.

Results

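Among the Drosophila melanogaster genes that still carry only a CG number as their symbol, 67 had lower RNA levels in adult heads collected in light than in heads collected in darkness. They were chosen by a rule on the measured values. A gene qualified if its highest probe set averaged at least 4 on the log2 scale over 12 arrays, and if the mean of the 3 lit arrays minus the mean of the other 9 arrays was -0.2 or less. The rule also named 11 genes to be left out, of which 4 met both thresholds. The 67 members come from 2216 CG-numbered genes with a mean of at least 4, from 4482 CG-numbered genes measured and from 10843 genes with a probe set of their own. Over all 13966 probe sets, 2.51% had a difference of -0.2 or less. Since the lit arrays chose the members, every value of light against darkness below is a description without a test.

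All flies were y w; tim01. The tim01 allele removes the function of timeless, which the circadian clock requires, and w flies lack the screening pigment of the compound eye. Every group carries these alleles, so no fly with a working clock was measured. The 4 groups had 3 arrays each. LD light was collected at ZT2, ZT6 and ZT10, hours counted from lights-on in a cycle of 12 h of light and 12 h of darkness. LD dark was collected at ZT14, ZT18 and ZT22 of the same day. The DD subjective day (CT2, CT6 and CT10) and the DD subjective night (CT14, CT18 and CT22) followed in constant darkness. Each array held RNA from pooled heads sieved from frozen flies, and there was 1 array per time, so the 3 arrays of a group are different hours and not replicates of 1 hour. Neither the age nor the sex of the flies is stated in the sources used here. All lit arrays came from the first of the 2 days, so light cannot be told apart from the time of collection. Values are RMA values, log2 measures of probe brightness, and the array medians lay between 4.06 and 4.10 on every array except CT2, whose median was lower.

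A CG number is a gene's identifier from the genome annotation. A gene keeps it as its symbol until it is named, so such genes include ones whose protein family is well known and ones with no known role. In flies with a working clock, light resets the clock by causing loss of the TIM protein, and light also acts on the head directly through the photoreceptors. A sieved head sample holds eye, brain, glia, head muscle and the fat body, and fragments of other body parts can pass the sieve. Digestive enzymes are made mainly in the midgut, which lies outside the head.

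The members' protein families were varied. Among the digestive families were the serine protease genes CG18180, CG10472, CG7542, CG11911 and CG8952, the carboxypeptidase genes CG12374 and CG17633, and the lipase gene CG6295. Membrane transporters were represented by CG3036 and CG15096 of the phosphate and anion transporter family, the ABC transporter genes CG17646 and CG4822, the organic cation transporter relative CG8654 and the oligopeptide transporter relative CG2930. Metabolic and stress genes included CG10621 (a homocysteine methyltransferase), CG1441 (a fatty acyl-CoA reductase), CG3376 (an acid sphingomyelinase), CG6770 (the fly relative of the stress protein p8) and CG7409 (a small heat shock protein relative). CG11155 encodes a glutamate receptor subunit, CG6429 a lysozyme of the invertebrate type and CG16713 a Kunitz-type protease inhibitor. Some of these genes were named here for their known family after the values had been seen. For most of the remaining members, among them CG18628, CG34168, CG34324 and CG10911, no role is stated here. Families were not assigned to every member, so the lists above may leave out members of the same families and do not describe a family as a whole.

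Mean levels of the members over 12 arrays ran from 4.05 (CG9254) to 10.54 (CG6770), with a median of 5.58. The mean lay below 5 for 25 members and above 8 for 5, namely CG6770, CG15096, CG16826, CG3036 and CG34330. The light difference had a median of -0.30. It was -0.5 or less for 15 members and above -0.3 for 33, so that close to the threshold the membership is a matter of hundredths. The members just inside were CG2930 (-0.2007), CG8539 (-0.2007) and CG7083 (-0.2002), and the genes just outside were CG14298 (-0.1977), CG3330 (-0.1908) and CG12990 (-0.1887).

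The members did not share 1 time course. Over the 9 unlit arrays, 38 members had r over 0.8 with a body-tissue score, and 29 had r of 0.65 or less. The score is an array's mean shift, in log2 units, over marker lists for thorax muscle, midgut and male reproductive tissue. Of the 2216 CG-numbered genes with a mean of at least 4, 90 (4.06%) had r over 0.8. The rule favours genes that are high in the DD subjective night, where the score is highest, so nothing is read from the members' larger share. These correlations describe 9 arrays that form a time series, and the split at 0.8 was made after the values were seen. The score was -0.38 ± 0.19 in LD light, -0.07 ± 0.45 in LD dark, -0.32 ± 0.39 in the DD subjective day and 0.76 ± 0.20 in the DD subjective night (SD, n = 3 arrays each).

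**Figure D1:**
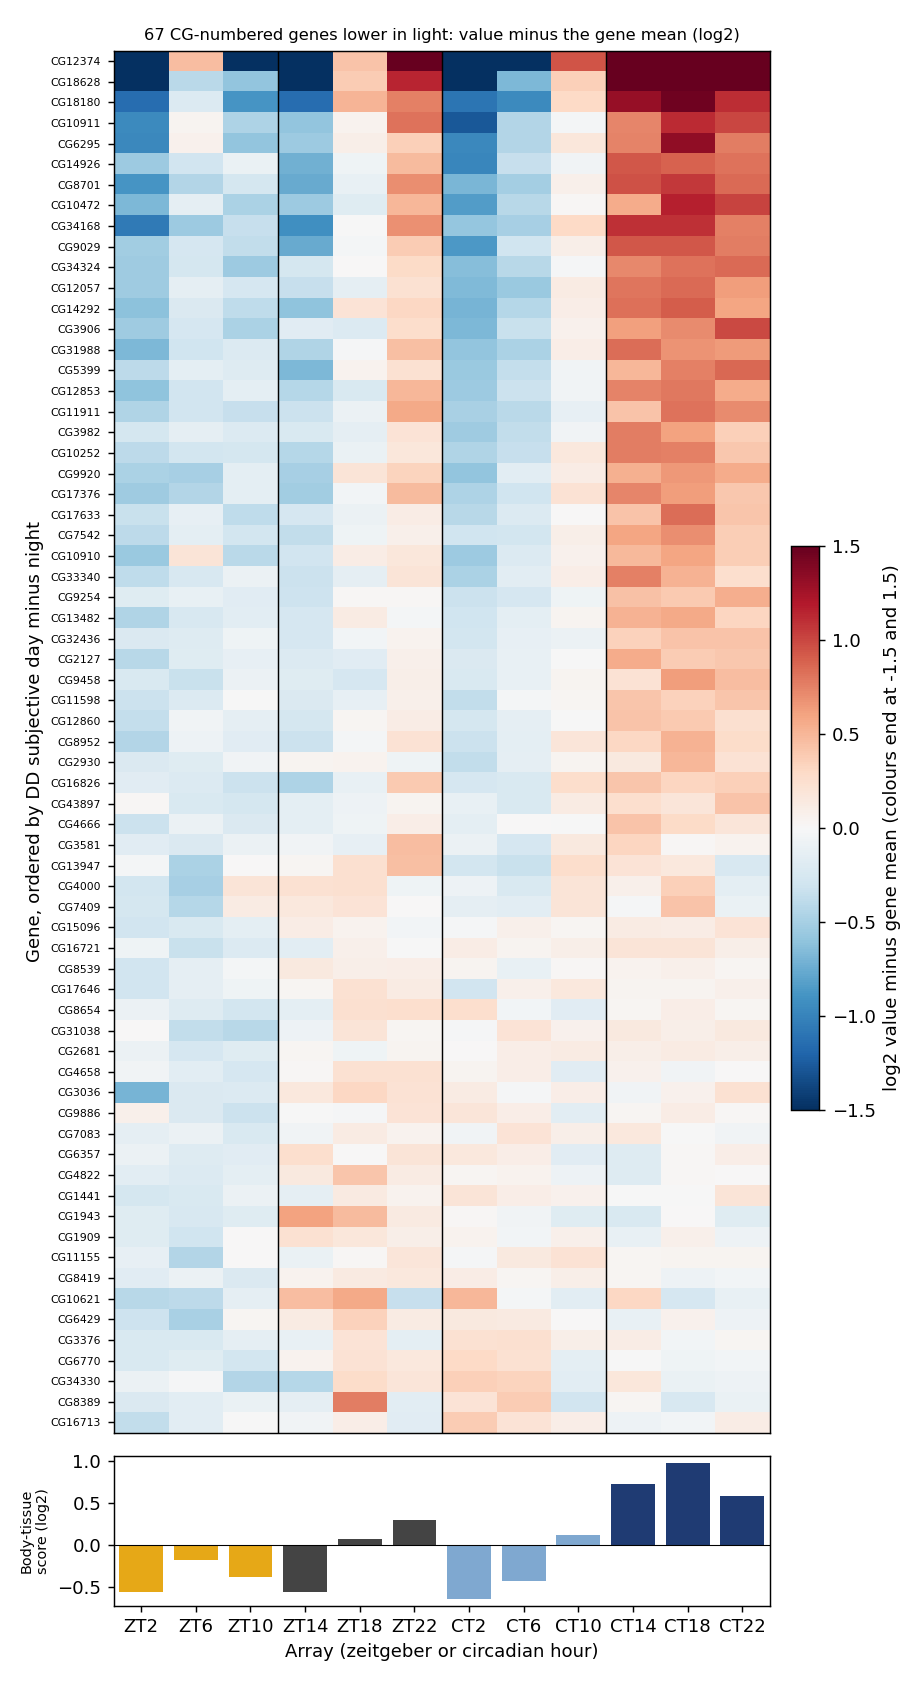
Value of each of the 67 members on each of 12 arrays minus the gene's mean (log2, colour), with genes ordered by the difference of DD subjective day minus night, above the body-tissue score of each array (bars, log2). The upper genes are highest at CT14, CT18 and CT22, where the score lies between 0.59 and 0.98, and of the 29 members with r of 0.8 or less, which form the lower part, 26 have their lowest value on a lit array.

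The low level in light was measured against 3 unlit groups, and the members differed in which of them it rested on. Against LD dark, 45 members were lower in light by 0.2 or more, with a median over all members of -0.26. Against the DD subjective night the number was 56, with a median of -0.56. Against the DD subjective day, which has the same hours as the lit arrays, the number was 18, the median was -0.14, and 9 members were higher in light. The 38 members with r over 0.8 had medians of -0.22 against LD dark, -0.08 against the DD subjective day and -0.95 against the DD subjective night. The other 29 had -0.30, -0.23 and -0.22. Of the 38, 2 were lower by 0.2 or more than in the DD subjective day (CG18628 and CG34168), and of the 29, 16 were. The 3 unlit groups are the arrays over which r was computed, and the score is highest in the DD subjective night. The contrast between the 38 and the 29 therefore describes the split and does not support it. The rule favours low values in light, and shares over all probe sets were not computed here, so nothing is read from the counts.

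**Figure D2:**
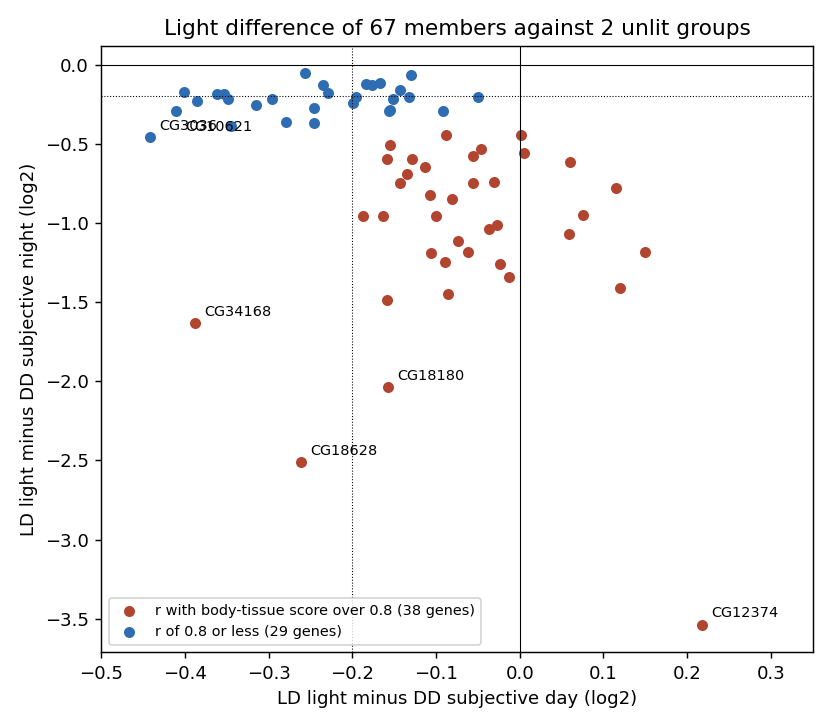
Difference of LD light minus DD subjective day (x axis, log2) against LD light minus DD subjective night (y axis, log2) for each of the 67 members, with dotted lines at -0.2. Members with r over 0.8 with the body-tissue score (38 genes) lie low on the y axis and around 0 on the x axis, with CG12374 at 0.22 and -3.54, while the other 29 have both differences between -0.4547 and -0.0503. The unlit arrays on both axes are among those over which r was computed, so the parting of the colours follows from the split.

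ZT14 was the first array after lights-off, and its body-tissue score of -0.56 was close to that of ZT2 (-0.57). Of the 38 members with r over 0.8, 28 were lower at ZT14 than their mean in light, and of the other 29, 1 was. The 38 had a median value, relative to each gene's mean, of -0.36 at ZT14, against 0.03 for the 29. ZT14 is among the 9 arrays over which r was computed, so these values describe the split and do not support it.

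Some members were low in light against every unlit group. The rule favours such genes, and their share over all probe sets was not computed, so nothing is read from their number. A difference of -0.2 or less against each of the 3 unlit groups was found for CG18628, CG34168, CG3036, CG10621, CG31038, CG6429, CG15096, CG1441 and CG11155, and of these 9 all but CG18628 and CG34168 had r of 0.8 or less. CG6429 and CG1441 were singled out after their values were seen. For 6 members, CG3036, CG15096, CG6770, CG7083, CG2681 and CG8419, all 3 lit arrays lay below all 9 others. Over all probe sets this held for 0.444%, and as the rule favours such genes nothing is read from the count.

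CG3036, a transporter gene, had the widest such gap. Its values were 7.72, 8.20 and 8.21 at ZT2, ZT6 and ZT10 in LD light, 8.58, 8.73 and 8.64 in LD dark, 8.54, 8.40 and 8.51 in the DD subjective day and 8.36, 8.49 and 8.64 in the DD subjective night. The lowest lit value was that of the first array after lights-on, and the highest lit array lay 0.15 below the lowest unlit one. The mean in light was 8.04 ± 0.28, against 8.65 ± 0.08 in LD dark, 8.48 ± 0.07 in the DD subjective day and 8.50 ± 0.14 in the DD subjective night (SD, n = 3 arrays each). All LD dark values of CG3036 lay above its DD subjective day values, and the DD subjective night overlapped with both.

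CG15096, of the same transporter family, had 9.39, 9.46 and 9.54 in LD light, 9.79, 9.74 and 9.64 in LD dark, 9.66, 9.75 and 9.71 in the DD subjective day and 9.81, 9.79 and 9.89 in the DD subjective night. The highest lit array lay 0.11 below the lowest unlit one, and the 3 lit arrays spanned 0.14. The p8 relative CG6770, with the highest level of all members, had 10.31, 10.36 and 10.26 in LD light, 10.58, 10.75 and 10.69 in LD dark, 10.83, 10.77 and 10.39 in the DD subjective day and 10.53, 10.47 and 10.49 in the DD subjective night. Its lit values were again the lowest, but by only 0.04, since CT10 was low as well.

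The gaps of CG7083, CG2681 and CG8419 were 0.03, 0.02 and 0.02, smaller than the span of their own lit arrays (0.15, 0.16 and 0.12). CG8419 had 5.17, 5.25 and 5.12 in light, and its nearest unlit array was CT18 at 5.26. CG2681 had 4.58, 4.42 and 4.48 in light, with ZT18 at 4.60 nearest. These gaps come from single arrays per time and have no replicate of the same hour.

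CG10621 had a light difference of -0.41 but unsteady unlit values. It stood at 4.64, 4.66 and 4.92 in LD light, at 5.52, 5.62 and 4.70 in LD dark, at 5.55, 5.02 and 4.89 in the DD subjective day and at 5.36, 4.80 and 4.94 in the DD subjective night. ZT22, CT10 and CT18 fell within the range of its lit arrays. CG31038 was low at ZT6 and ZT10 (5.67 and 5.63) but had 6.05 at ZT2, between its values at ZT14 (5.97) and ZT22 (6.07). The lysozyme gene CG6429 had 5.11, 4.93 and 5.44 in light, and its unlit values lay between 5.30 and 5.76. CG11155, the glutamate receptor gene, had its lowest value at ZT6 (3.88), and ZT2 (4.19) and ZT10 (4.33) lay near its unlit range of 4.22 to 4.54.

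The other enzymes and transporters with r of 0.8 or less had light differences between -0.27 and -0.20. The fatty acyl-CoA reductase gene CG1441 had 5.54, 5.58 and 5.72 in LD light, 5.67, 5.95 and 5.86 in LD dark, 6.004, 5.91 and 5.87 in the DD subjective day and, in the DD subjective night, 5.81 at CT14 and 5.80 at CT18, with CT22 just below CT2. ZT10 was above ZT14, and the remaining unlit arrays were above all lit ones. The sphingomyelinase gene CG3376, with a mean near the array median, had 3.86, 3.85 and 3.96 in LD light and differed most from the DD subjective day (4.31, 4.33 and 4.18), with ZT22 (3.94) inside its lit range. The Kunitz-type inhibitor gene CG16713 was also highest at CT2 (6.21), and its lit values of 5.47, 5.68 and 5.83 overlapped with LD dark and the DD subjective night. The transporter genes CG17646 and CG8654 were highest at ZT18 (6.20) and ZT22 (5.96). The unlit arrays inside the lit range were CT2 at 5.69 for CG17646, and ZT14 at 5.56 and CT10 at 5.53 for CG8654. CG8389, a relative of monocarboxylate transporters, had a light difference of -0.21, with high values at ZT18 (6.15), CT6 (5.77) and CT2 (5.598), while its other 6 unlit arrays lay between 5.10 and 5.42, close to its lit values of 5.17, 5.23 and 5.29. The small heat shock protein relative CG7409 had 6.80, 6.63 and 7.18 in LD light, and its unlit values lay between 6.90 and 7.48, so ZT10 was inside that range.

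**Figure D3:**
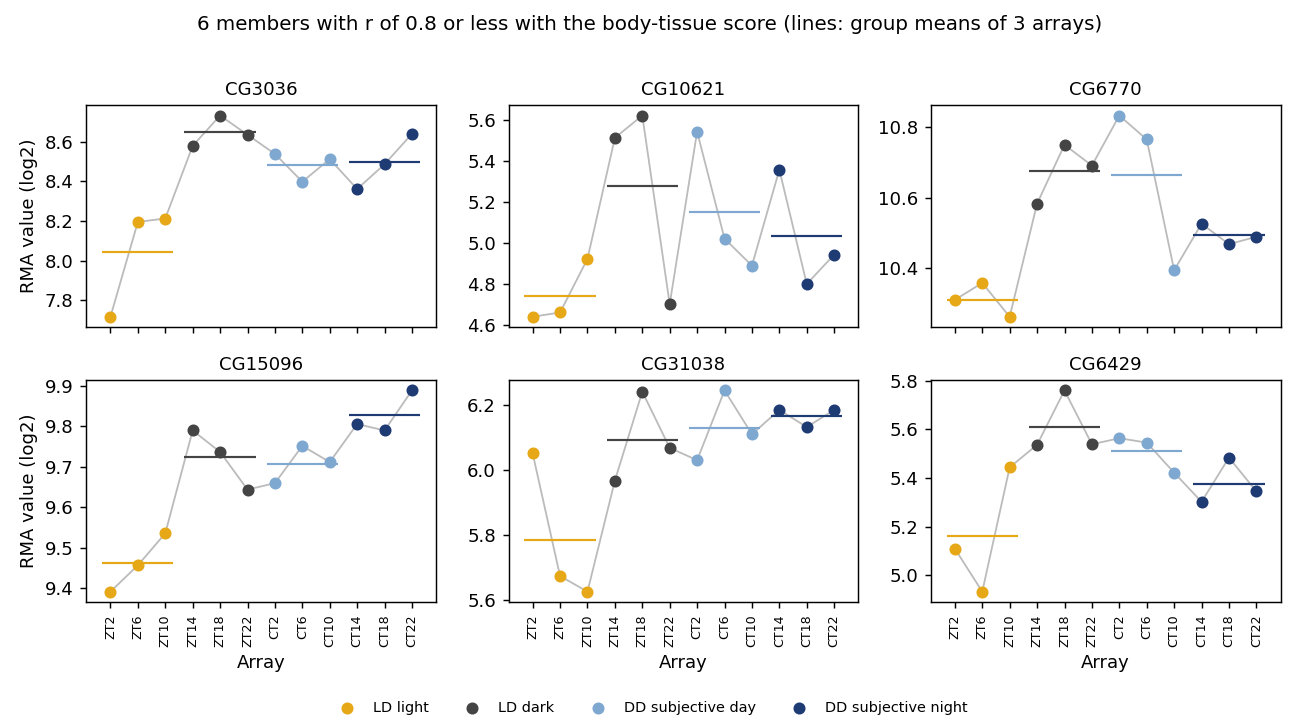
RMA values (log2, y axis) of 6 members with r of 0.8 or less with the body-tissue score on the 12 arrays in order of collection (x axis), with points coloured by group and lines for the mean of the 3 arrays of a group. In CG3036, CG15096 and CG6770 the 3 lit points lie below all 9 others; in CG10621, CG31038 and CG6429 they overlap with some unlit arrays.

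The members with the lowest light differences followed another course. The carboxypeptidase gene CG12374 had the lowest of all, -1.43. Its values were 4.63, 7.19 and 5.14 in LD light, 4.14, 7.16 and 8.59 in LD dark, 3.97, 4.67 and 7.66 in the DD subjective day and 8.91, 9.63 and 9.03 in the DD subjective night. The lit arrays overlapped with both LD dark and the DD subjective day, the lowest value was at CT2 in darkness, and the mean in light was 0.22 above that of the DD subjective day. Only the 3 arrays of the DD subjective night stood above all the others.

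CG18628 (light difference -1.22) had 6.24, 7.59 and 7.40 in LD light, 6.42, 8.38 and 9.14 in LD dark, 6.35, 7.32 and 8.35 in the DD subjective day and 9.56, 9.68 and 9.53 in the DD subjective night. The serine protease gene CG18180 (-0.99) had 5.30, 6.23 and 5.55 in LD light, 5.29, 6.94 and 7.20 in LD dark, 5.34, 5.48 and 6.73 in the DD subjective day and 7.74, 7.90 and 7.54 in the DD subjective night. In both, as in CG12374, ZT2, ZT14 and CT2 held the 3 lowest values, ZT6 was the highest of the lit arrays, and ZT22 was the highest outside the DD subjective night. The lipase gene CG6295 (-0.66) had 4.45, 5.47 and 4.81 in light, and its lowest value was at CT2 (4.44). CG10911 (-0.61) and CG34324 (-0.60) also had their lowest value at CT2.

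Of the members with r over 0.8, CG34168 (-0.86) had the lowest difference of LD light minus DD subjective day, -0.39, although those groups overlapped. Its values were 3.40, 3.92 and 4.12 in LD light, 3.54, 4.46 and 5.15 in LD dark, 3.88, 3.97 and 4.76 in the DD subjective day and 5.56, 5.56 and 5.22 in the DD subjective night. CG14292 (-0.54) had the correlation with the score nearest to 1 of the members (0.99), with 5.20, 5.60 and 5.44 in LD light and 5.12, 5.39 and 5.92 in the DD subjective day, which overlapped. CG3906 (-0.56) and CG31988 (-0.53) differed from the DD subjective day by -0.11 and -0.07, and from the DD subjective night by -1.19 and -1.11. CG5399 (-0.33) was higher in light than in the DD subjective day by 0.08, and the chaperonin relative CG9920 (-0.50) was lower by 0.16. These 2 genes were singled out after their values were seen.

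**Figure D4:**
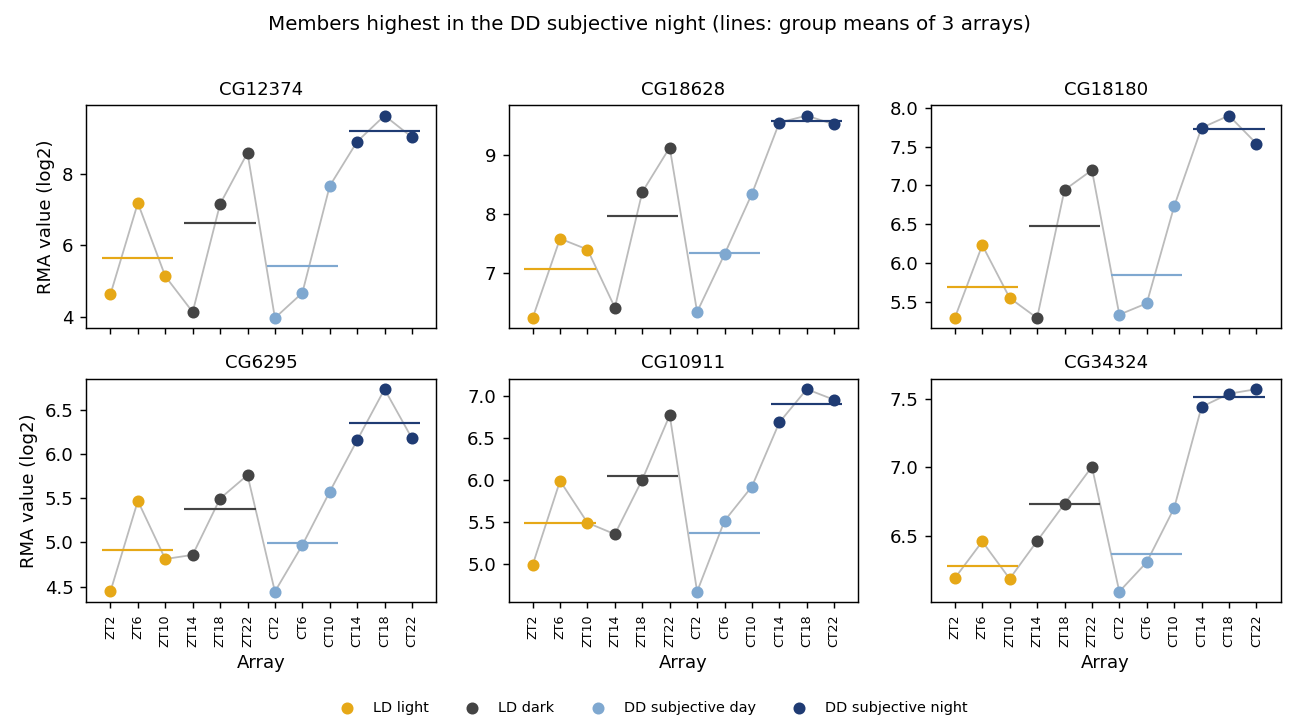
RMA values (log2, y axis) of 6 members with r over 0.8 with the body-tissue score on the 12 arrays in order of collection (x axis), with points coloured by group and lines for the mean of the 3 arrays of a group. The highest values are those of CT14, CT18 and CT22, except in CG10911, where ZT22 (6.77) lies above CT14 (6.68), and ZT14 and CT2 are as low as the lit arrays or close to them.

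Markers of 3 tissues, those that make up the score, moved with these members. The midgut list (15 of 20 genes measured) had a median level between 5.42 and 6.46 in LD light, 5.27 and 6.73 in LD dark, 5.27 and 6.65 in the DD subjective day, and 7.06 and 7.39 in the DD subjective night. For the male reproductive list (19 of 21 measured) the ranges in the same order were 3.62 to 4.08, 3.56 to 4.99, 3.53 to 4.88 and 5.20 to 5.70, and Acp26Aa, Acp26Ab, Acp53Ea, Acp76A, dj and janB had means under each array's lower quartile. The thorax muscle list (14 of 15 measured) had 5.84 to 5.92, 5.81 to 6.15, 5.90 to 6.10 and 6.22 to 6.39. Markers of other cells outside the head tissues, which are not part of the score, did not follow this course. The female germline and follicle list (8 of 10 measured) had a mean shift of 0.05 in LD light, -0.06 in LD dark, -0.02 in the DD subjective day and 0.01 in the DD subjective night, and the hemocyte list (4 of 5 measured) had 0.04, 0.09, -0.09 and 0.01 in the same groups. Of the head tissue markers, the median level was 9.23 for photoreceptor genes (7 of 13 measured) and 10.51 for head fat body genes (7 of 7). For glia genes (5 of 6) it was 5.73. For neuron genes (6 of 9) it was 4.04, near the array medians, with means from 3.01 (para) to 5.29 (Rdl). More tissue from outside the head and more RNA per cell cannot be told apart in such samples, and the part of these tissues in the members' differences was not tested.

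The order of values inside the light phase was not used by the rule. ZT2 was the lowest of the 3 lit arrays for 40 members, ZT6 for 15 and ZT10 for 12. The body-tissue score was also lowest at ZT2 among the lit arrays (-0.57, against -0.19 at ZT6 and -0.39 at ZT10). The share over all probe sets was not computed for this order, so nothing is read from it. The span of the 3 lit values had a median of 0.29 and reached 2.56 in CG12374, 1.35 in CG18628, 1.02 in CG6295, 0.998 in CG10911 and 0.94 in CG18180, while CG1943, with 5.94, 5.88 and 5.94, spanned 0.06. Over all 12 arrays, the lowest value was on a lit array for 41 members, at CT2 for 20 and at ZT14 for 3. The highest was in the DD subjective night for 42 members, and on a lit array for 0. At matched hours, 41 members were lower at ZT2 than at CT2, 40 at ZT6 than at CT6 and 62 at ZT10 than at CT10, and 27 were lower at all 3 hours. The rule favours low values on lit arrays, so nothing is read from these counts or from the place of the lowest and highest values. The body-tissue score was -0.39 at ZT10 and 0.12 at CT10, and its part in the count at hour 10 was not tested. The array median was 4.09 at ZT2, above that of CT2, so the comparison at hour 2 is between arrays of unequal median.

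The differences among the unlit groups are estimated without the lit arrays. The lit arrays do share in the fit's estimate of the spread, and so in the SEs and p-values. In constant darkness, 28 of the 67 members fell in the subjective day relative to the subjective night, and 0 rose (limma, adjusted p under 0.05 over all probe sets). Over all probe sets 1.39% passed, 1.34% as falls and 0.0501% as rises. A gene that is high in the DD subjective night raises the mean of the 9 unlit arrays and so is more likely to be a member, and for this reason the count is not read as a property of the members. All 28 were among the members with r over 0.8. The arrays over which r was computed include the DD arrays compared here, so this describes the split and does not support it. The difference over all 67 members had a median of -0.47, against 0.003 over all probe sets and 0.01 over CG-numbered genes with a mean of at least 4.

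Among the 28 members, differences ranged from -1.88 (CG18180) to -0.44 (CG2930, whose second probe set, at a mean of 3.62, had 0.035). CG18180 averaged 5.85 ± 0.77 on the subjective-day arrays and 7.73 ± 0.18 on the subjective-night arrays (SD, n = 3 arrays each), and the change was -1.88 (SE 0.417, adjusted p = 0.0375 by limma). CG34324 had the smallest p, with a difference of -1.16 (SE 0.144, adjusted p = 0.0019), and its day values of 6.09, 6.30 and 6.70 lay below its night values of 7.45, 7.54 and 7.58. All 6 values of CG34324 thus separated by group. The difference was -1.33 for the protease gene CG10472 (SE 0.243, adjusted p = 0.0134), -1.36 for the lipase gene CG6295 (SE 0.289, adjusted p = 0.0292) and -1.53 for CG10911 (SE 0.33, adjusted p = 0.0305). CG8701, CG14926 and CG9029 were at -1.33, -1.33 and -1.23. The carboxypeptidase gene CG17633 was at -0.77 (SE 0.129), and the protease genes CG7542 and CG11911 were at -0.72 and -0.99.

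The 2 largest estimates did not pass, nor did that of CG34168. CG12374 differed by -3.75 (SE 0.99, adjusted p = 0.09), CG18628 by -2.25 (SE 0.561, adjusted p = 0.0694) and CG34168 by -1.24 (SE 0.311, adjusted p = 0.0699). The spread of CG12374 was 1.96 (SD) inside the DD subjective day and 2.27 inside LD dark. All 3 subjective-day arrays lay below all 3 subjective-night arrays for 39 members, against 7.96% of all probe sets. As the rule favours genes high in the DD subjective night, nothing is read from this count. Members with r of 0.8 or less had small differences. Their choice by r uses these same DD arrays and a score that is high in the DD subjective night, so it favours small differences. By limma, CG3036 was at -0.01 (SE 0.113, adjusted p = 0.989), CG15096 at -0.12 (SE 0.0656, adjusted p = 0.652) and CG6770 at 0.17 (SE 0.0937, adjusted p = 0.659). The count of 28 was 5 without CT2, 5 without CT6, 11 without CT14, 7 without CT18 and 13 with a trended robust prior. With the body-tissue score as a covariate it was 0, as it was over all probe sets. The score itself was -0.32 in the DD subjective day and 0.76 in the DD subjective night. That fit therefore cannot separate the score from the contrast, and nothing is read from its count. In it the estimates of CG18180, CG10911, CG6295, CG12374, CG18628, CG34168 and CG14292 were above 0.

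**Figure D5:**
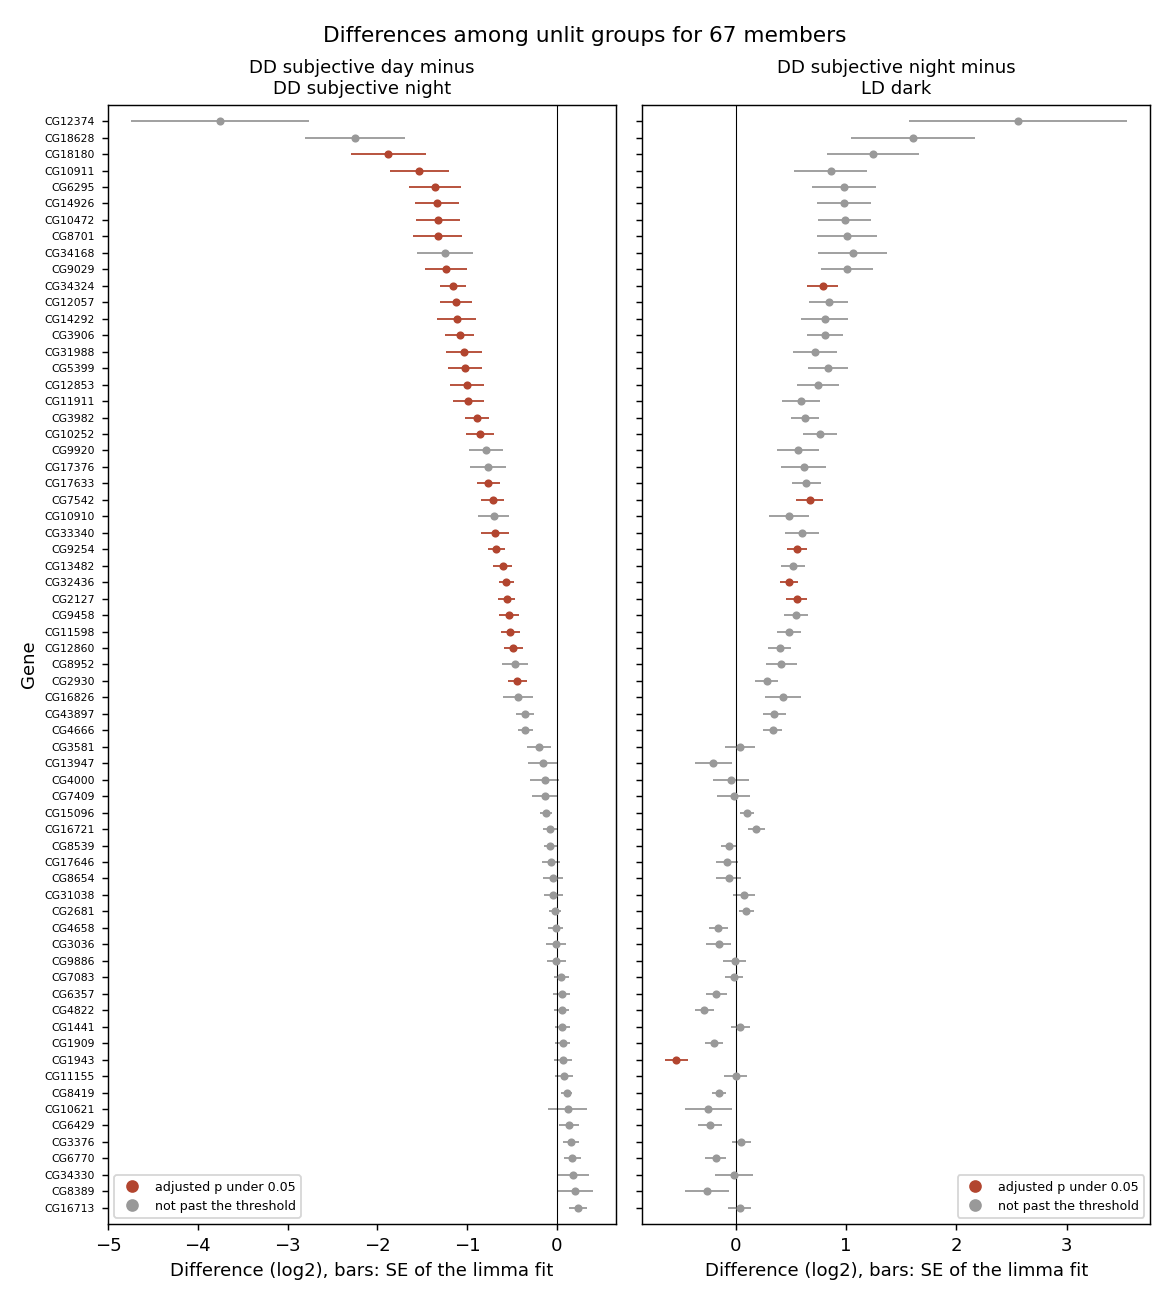
Estimated differences (points, log2) with standard errors of the limma fit (bars) for the 67 members, for DD subjective day minus DD subjective night (left) and DD subjective night minus LD dark (right), with red for adjusted p under 0.05. On the left 28 members are red, all below 0; on the right 6 are red, with CG1943 the one below 0.

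The DD subjective night was also set against LD dark, which has the same hours on the day before. This comparison shares its DD subjective-night arrays with the one above. Of the 67 members, 5 rose in the DD subjective night and 1 fell, where 0.2% of all probe sets passed, 0.158% higher and 0.043% lower, and the same caution on the count applies. CG34324 was at 7.52 ± 0.07 in the DD subjective night and 6.73 ± 0.27 in LD dark (SD, n = 3 arrays each), and it rose by 0.79 (SE 0.144, adjusted p = 0.0405 by limma). The protease gene CG7542 rose by 0.67 (adjusted p = 0.0418), CG9254 by 0.56 (adjusted p = 0.0246), CG2127 by 0.55 (adjusted p = 0.0266) and CG32436 by 0.48 (adjusted p = 0.0266).

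CG1943 went the other way, with 5.89, 6.13 and 5.94 in the DD subjective night and 6.72, 6.59 and 6.26 in LD dark. The groups did not overlap, and the difference was -0.54 (SE 0.102, limma adjusted p = 0.0484). Its values in LD light (5.94, 5.88 and 5.94) and in the DD subjective day (6.14, 6.06 and 5.94) were near those of the DD subjective night. The high values of CG1943 were thus those of the LD night, highest at ZT14, the first array after lights-off, and lower at ZT18 and ZT22. Its light difference was -0.60 against LD dark, -0.13 against the DD subjective day and -0.07 against the DD subjective night.

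The count of 6 was 0 without ZT14, CT14 or CT18, 1 without ZT18, CT6 or CT22, 3 without ZT2 or ZT10, 12 without CT2, 15 without CT10 and 27 without ZT22. It was 14 with median centring. With the body-tissue score as a covariate it was 0, as it was over all probe sets, and nothing is read from that count.

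A 24 h cosine curve fitted to the DD arrays passed limma's moderated F test for 12 members, with 0.78% over all probe sets. All 12 were also among the 28 that fell in the DD subjective day, and the fit uses the same 6 DD arrays. Their amplitudes, the distance from mean to peak, ranged from 0.45 (CG9254) to 0.88 (CG9029), and their fitted peaks from hour 15.7 to hour 17.8. The rule favours genes that are high in the DD subjective night, so neither the count nor the peak hours are read as a property of the members. CG9029 had an amplitude of 0.88 (SE 0.157, adjusted p = 0.0473), CG12057 of 0.84 (SE 0.112, adjusted p = 0.0169) and CG14292 of 0.84 (SE 0.134, adjusted p = 0.0276). They were followed by CG34324 (0.80), the protease gene CG11911 (0.70), CG10252 (0.67), CG3982 (0.66), CG17633 (0.57), CG33340 (0.55), CG7542 (0.55) and CG13482 (0.45). One day of 6 arrays cannot show that such a curve repeats. The count was 0 without CT2, CT6 or CT14, 1 without CT18, 7 without CT10, 24 without ZT22 and 32 without ZT2. With the body-tissue score as a covariate it was 0. The score also differs between the DD groups, so nothing is read from that count.

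A second probe set was present for 9 members. For CG13947 the probe sets were close, with light differences of -0.22 and -0.18. They parted for CG9886 (-0.20 at a mean of 5.58, and 0.21 at 3.07), CG31038 (-0.35 at 6.04, and -0.02 at 3.88), CG17646 (-0.22 at 5.97, and 0.09 at 4.54), CG43897 (-0.21 at 5.65, and 0.07 at 4.38) and CG2930 (-0.20 at 6.49, and 0.07 at 3.62). For CG11155, CG4822 and CG32436 the lower probe sets had -0.09, -0.09 and -0.07 at means of 2.47, 2.52 and 3.22. The means of these probe sets of CG11155 and CG4822 were under each array's lower quartile, and those of CG9886 and CG32436 just above it, levels at which a change may not be measurable.

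In the RefSeq gene order, 1 pair of members were direct neighbours among protein-coding genes, CG8701 and CG2127. CG8701 was at 4.28 ± 0.32 in LD light, 4.76 ± 0.73 in LD dark, 4.44 ± 0.40 in the DD subjective day and 5.77 ± 0.11 in the DD subjective night, and CG2127 at 5.94 ± 0.16, 6.08 ± 0.15, 6.08 ± 0.10 and 6.64 ± 0.10 in the same groups (SD, n = 3 arrays each). Both were highest in the DD subjective night. CG12860 lies next to CG12861, a gene the rule left out.

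The share of genes past the light threshold can be set beside that of named genes. Of the 2216 CG-numbered genes with a mean of at least 4, 71 (3.20%) had a light difference of -0.2 or less, and of 3706 named genes at that level 121 (3.26%) did; the shares were not tested. In the other direction, 23 CG-numbered genes were higher in light by 0.2 or more. Of these 23, 0 passed the threshold in the DD subjective day against night, the DD subjective night against LD dark or the DD harmonic, with 0, 1 and 2 at an unadjusted p under 0.05 by limma, and their median difference of DD subjective day minus night was -0.003.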

How the data were processed

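The authors deposited 1 log2 value per probe set and array, and RMA is named in the submitters' processing notes; the sources used here state neither its version nor the arrays it was run over. In general RMA corrects background, makes the arrays' distributions alike and joins each set's probes into 1 value. Of the probe sets, 44 controls were left out. Genes were taken from the platform annotation, each by its highest-mean probe set. Groups were fitted with limma 3.58.1 in R 4.3.3 as 4 means over 12 arrays (8 residual degrees of freedom), and the DD cosine with a separate mean and curve per day (6). Tests were two-sided, Benjamini-Hochberg adjusted over all probe sets, with a threshold of 0.05, and the fits were tested on simulated data. Because each time has 1 array, p-values reflect array-to-array spread within groups of hours, and the number of arrays limits the precision. Members, marker lists and the naming rule were chosen with earlier results of these data known. Named were members with the lowest light differences, the largest changes in each test, the highest levels, the widest gaps, extreme correlations with the score, several probe sets, adjacent positions, or a place at the threshold; others are named as singled out. Alternatives covered scaling, prior, array weights, filters, covariate, arrays fitted and left-out arrays. Neighbouring genes were found from the gene order of the RefSeq annotation (Release 6 plus ISO1 MT); no coordinates or sequences are printed.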

Additional observations from a re-analysis of the deposited data

How the results depend on the processing

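The number of members was 34 at a threshold of -0.3 and 42 with a mean of at least 5; under the other settings it lay between 60 and 93, with 60 to 78 when an array was left out. Applying the thresholds before choosing a probe set, an alternative added after the data were seen, gave 70, adding CG12699, CG1394 and CG8468. Members lower than the DD subjective day by 0.2 or more numbered 24, not 18, with median centring or quantile normalization, also added later. The median DD day minus night difference over members lay between -0.60 and -0.36 without single DD arrays. The DD day minus night count of 28 was 13 with the trended robust prior and 5 to 37 without single arrays. With the score as covariate it was 0, as it was over all probe sets. With the score the estimates of CG18180 (0.33), CG10911 (0.0798), CG6295 (0.11), CG12374 (1.52), CG18628 (0.65), CG34168 (0.31) and CG14292 (0.0087) turned positive; the cause was not tested. The DD subjective night minus LD dark count of 6 was 14 with median centring and 2 with a mean of at least 4 only. It was 2 with only the arrays compared, 0 with the score, as over all probe sets, and 0 to 27 without single arrays. With the replicate block by clock hour it was 1, none of the 6; same-hour arrays had correlations of 0.08, 0.04 and -0.03 in their deviations, so the hours share only a number. The harmonic count of 12 was 5 with a mean of at least 4 only, 25 with only the arrays compared, 0 with the score, and 0 to 32 without single arrays.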
